A study of Mus musculus with 2 samples.

Results

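Polyamine metabolism was followed through 10 genes in the adrenal gland: the antizyme genes Oaz1 and Oaz2, the antizyme inhibitor gene Azin1, the synthesis genes Odc1, Amd1, Srm and Sms, and the breakdown genes Sat1, Paox and Smox. The members were all transcript models that both deposited tables assign to these gene names, 76 models in replicate 1 and 91 in replicate 2. They are 10 of the 16400 annotated genes with reads, and models of all mouse genes and intergenic regions numbered 65770 and 99131. Oaz1 and Oaz2 were singled out because nearly all of their reads lie on models outside the annotation, which lack a gap of 4 bases that the annotation places inside the coding sequence. The members were thus chosen by these read counts, which are given as a description with no test.

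The data are long-read RNA-seq libraries of total RNA from adrenal glands of female B6CASTF1/J mice aged 25 days, and there is 1 group of 2 biological replicates. All animals share this hybrid genotype, and the labels name no treatment, transgene or second condition. The tissue descriptions name a different animal for each replicate, while both library descriptions name the same animal. The standard deviations (SD) given here therefore measure only the spread between these libraries. The p-values compare these libraries and cover counting error only. Replicate 1 held 426150 reads and replicate 2 held 770041, of which 397176 and 712032 lay on annotated mouse genes.

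The defining genes of the cortex and of chromaffin cells were all read in both libraries. The 7 cortex markers summed to 74619 and 67425 CPM (a gene's reads scaled to 1000000 reads on annotated mouse genes), and the 5 chromaffin markers to 10892 and 11936 CPM. Markers of fat (1823 and 1358 CPM) and red blood cells (3074 and 3682 CPM) were present in both, and the 4 kidney markers were at 0. The 6 liver markers held 97 reads in replicate 1 and 1 read in replicate 2.

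Polyamines are small, positively charged molecules that cells make from ornithine and need for growth and translation. Ornithine decarboxylase, the product of Odc1, makes putrescine, and spermidine and spermine synthases extend it with groups supplied by S-adenosylmethionine decarboxylase. Antizyme binds ornithine decarboxylase, blocks it and leads it to the proteasome. Its messenger RNA carries a stop codon inside the coding sequence, and full-length antizyme is made only when the ribosome shifts its reading frame by 1 base there, a step that polyamines favour.

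The 2 antizyme genes hold nearly the same sequence at this frameshift site. In build mm10 (GRCm38) the Oaz1 site lies in the exon at chr10:80828237-80828382 on the plus strand, and the Oaz2 site in the exon at chr9:65686196-65686353 on the plus strand. The windows below run 5′ to 3′ and were read from the GENCODE M21 transcripts. They show what the reads' models keep and what the annotated models drop. Capitals mark the 4 annotated gap bases in the form without a gap, and the 3 bases left of them where only the last is dropped.
Oaz1 without a gap (chr10:80828268-80828319): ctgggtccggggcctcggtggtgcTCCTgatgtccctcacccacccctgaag
Oaz1 with the 1-base gap closed up: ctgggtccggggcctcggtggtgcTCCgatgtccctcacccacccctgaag
Oaz1 with the 4-base gap closed up: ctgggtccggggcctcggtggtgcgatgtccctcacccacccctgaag
Oaz2 without a gap (chr9:65686245-65686296): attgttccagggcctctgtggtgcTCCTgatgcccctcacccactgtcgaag
Oaz2 with the 1-base gap closed up: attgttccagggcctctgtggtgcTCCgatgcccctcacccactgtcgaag
Oaz2 with the 4-base gap closed up: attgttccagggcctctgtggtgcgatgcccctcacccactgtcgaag

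Of the 52 window bases, 42 are the same in both genes, and the TCCTGA stretch is shared. The last gap base is the T of the TGA stop codon at chr10:80828295-80828297 in Oaz1 and at chr9:65686272-65686274 in Oaz2. Read from the annotated start codon without a gap, Oaz1 has 68 codons before this stop and Oaz2 has 32. In the frame entered by skipping the T, a further 159 codons follow in Oaz1 and 157 in Oaz2 before the next stop. The sums, 227 and 189 codons, equal the annotated coding lengths of Oaz1-207 and Oaz2-206, whose models leave out that 1 base as if it were an intron. Oaz1-201 and Oaz2-201 leave out 4 bases and are annotated with 226 and 188 codons, 1 codon fewer. The annotation thus writes the frameshift as a gap between exons.

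No read in either library lay on a model with the gap. For Oaz1, 761 of 766 reads in replicate 1 and 1497 of 1505 in replicate 2 lay on models that cover the site. The model was gap-free for all of these (95% Wilson intervals 99.5 to 100% and 99.7 to 100%). By counting error alone, a count of 0 allows up to 3 reads. That is a share on gapped models of up to 0.394% in replicate 1 and 0.200% in replicate 2. For Oaz2, 90 of 92 and 166 of 168 reads covered the site, again all without a gap, which allows gapped shares of up to 3.33% and 1.81%. The result was the same for the gaps of 4 bases and of 1 base. No model with reads held an intron this short, which fixed the outcome. These intervals and limits thus set no bound on gapped RNA.

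These counts describe models and not single bases of reads. The shortest intron in any model with reads was 56 bases among annotated transcripts in both libraries. Among models outside the annotation it was 33 bases in replicate 1 and 32 in replicate 2. A deletion of 1 or 4 bases in a read and a gap-free read can therefore not be told apart in these files.

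**Figure D1:**
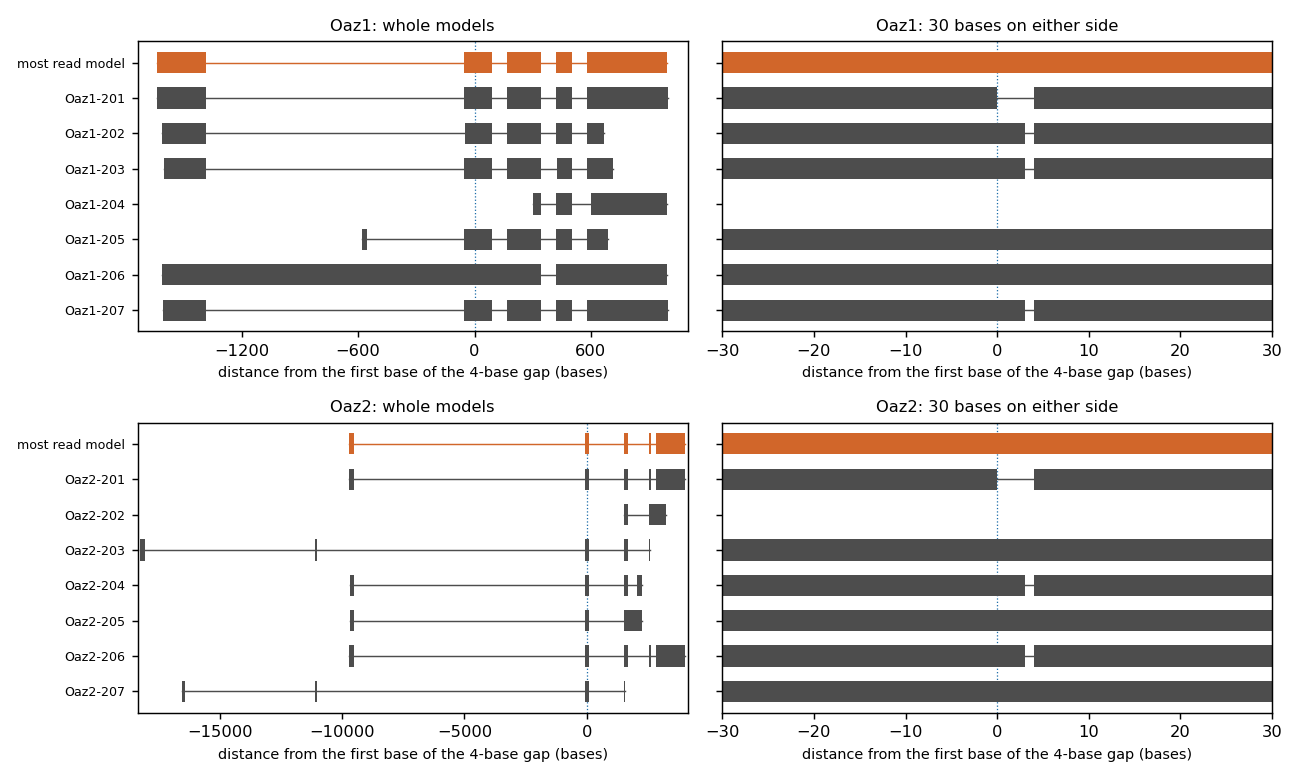
Exons (boxes) and introns (lines) of the most read model of Oaz1 and Oaz2 (orange) and of every annotated transcript of the gene (grey), by distance in bases from the first base of the annotated 4-base gap (dotted line), whole at left and within 30 bases at right. The most read model has no gap at the site, Oaz1-201 and Oaz2-201 lack 4 bases, and Oaz1-202, Oaz1-203, Oaz1-207, Oaz2-204 and Oaz2-206 lack 1 base.

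Almost all antizyme reads lay outside the annotation. Reads on annotated Oaz1 transcripts numbered 0 of 766 in replicate 1 and 3 of 1505 in replicate 2, all 3 on the retained-intron transcript Oaz1-206. Reads on annotated Oaz2 transcripts numbered 1 of 92 and 2 of 168, all on the retained-intron transcript Oaz2-205. The deposited class of the other reads was mostly a new combination of annotated splice sites, 97.1% of Oaz1 reads in each library and 94.6% and 95.2% of Oaz2 reads. Over all annotated genes this class held 4.6% of the reads in each library.

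A single model held most of the reads of each antizyme gene. The Oaz1 model has 5 exons from chr10:80826656 and held 723 reads in replicate 1 and 1413 in replicate 2. Its deposited end differed between the libraries, at 80829284 (1069 bases in all) or 80829290. Its intron chain is that of Oaz1-201 and Oaz1-207 once their gaps are closed. The Oaz2 model has 5 exons and 1844 bases from chr9:65676548 to 65690300 and held 84 and 155 reads, with the closed chain of Oaz2-201 and Oaz2-206. With gaps of at most 10 bases closed, 95.7% ± 0.15 of Oaz1 reads and 92.9% ± 0.75 of Oaz2 reads (SD, n = 2) lay on a complete annotated chain. Before closing, these shares were 0.10% ± 0.14 and 1.14% ± 0.07.

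The choice of models moved the rank of the antizymes further than that of any other member. Counted over all models, Oaz1 ranked 28th by mean CPM among the 16400 genes, and over annotated transcripts alone it ranked 10160th. Oaz2 went from rank 789 to rank 9725. Odc1, whose reads are mostly annotated, went from rank 583 to 622.

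**Figure D2:**
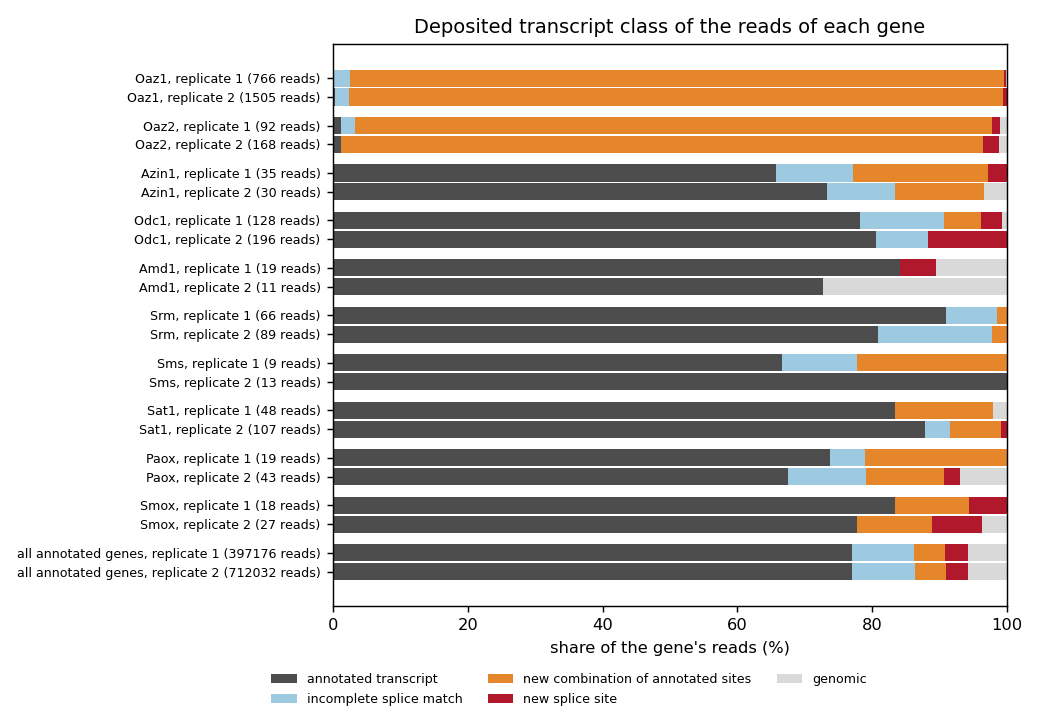
Share of each gene's reads (horizontal axis, %) in each deposited transcript class, a bar per library, with the number of reads in brackets. New combinations fill 94.6 to 97.1% of the antizyme bars, while annotated transcripts fill at least 65.7% of the bar of every other member in each library.

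Short annotated gaps were without reads in every gene examined. The annotation holds 336 gaps of at most 10 bases in 242 genes, and 82 of these gaps, in 61 genes, were covered by reads. No gap was present in a model with reads, in either library. As for the antizymes, the lack of introns this short in any model with reads fixed this outcome. Among the genes outside the members with at least 20 covering reads in each library, all had a gap-free share of 100%, so they were ordered by covering reads. Cfl1, which encodes the actin-severing protein cofilin, had 209 and 313 covering reads, the predicted gene Gm21887 had 52 and 176, and Pitpna, a phosphatidylinositol transfer protein gene, had 73 and 146. Tmem134 had 38 and 99, Acbd4 had 49 and 58, and Nadk2, which encodes the mitochondrial NAD kinase, had 23 and 53.

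Genes with such a gap differed widely in their annotated reads. Of 13 genes with such a gap and at least 20 reads in each library, 5 had at least 95% of their reads outside the annotation in each library: Oaz1, Oaz2, Pitpna, Mpc1 and Gm21887. Another 5, Cfl1, Tmem134, Creb3, Ptpmt1 and 1600014C10Rik, had under 30% outside in each. Reads counted here need not reach the gap. The Mpc1 gap had 0 covering reads in each library, and the Creb3 gap had 3 and 6. The part of the gaps in these shares was not tested. In Cfl1 the annotated transcripts without a gap took 165 of 209 reads and 306 of 424. Oaz1 has 3 annotated transcripts without a gap and Oaz2 has 4, but the retained-intron forms named above were their only ones with reads.

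Among all 3926 genes with at least 20 reads in each library, 68 (1.73%) had at least 95% of their reads outside the annotation in each, and the median share was 15.4% in each library. By reads, Oaz1 was exceeded among these 68 only by Hsd3b1, the steroid dehydrogenase of the cortex, which has no annotated gap of this size.

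**Figure D3:**
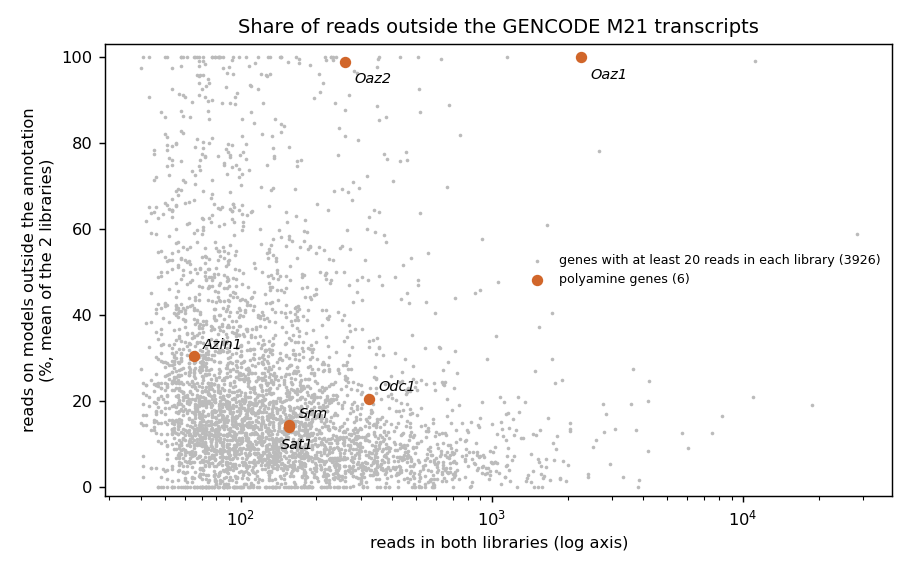
Mean share of reads outside the annotated transcripts (vertical axis, %) against reads in both libraries (horizontal log axis) for the 3926 genes with at least 20 reads in each library (grey) and the 6 polyamine genes among them (orange). Oaz1 and Oaz2 lie near 100%, and Srm, Sat1, Odc1 and Azin1 between 14.1 and 30.5%.

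The antizymes' share outside the annotation was left untested, since it chose them. In the other 4 members with at least 20 reads in each library, Odc1, Srm, Sat1 and Azin1, this share did not pass the test between the libraries (two-sided Fisher's exact test over all 3926 genes, Benjamini-Hochberg adjusted p from 0.997 to 1, and 0 members at an unadjusted p under 0.05). Over all genes 0.229% passed. The same holds for the most read annotated transcript against the others in Srm, Sat1 and Azin1, the members with at least 20 annotated reads in each library and more than 1 annotated transcript with reads (adjusted p of 1 each in Fisher's exact test, 0 members at an unadjusted p under 0.05, 0.161% of 1866 genes passing). Sat1-201 took 36 of 40 and 88 of 94 annotated Sat1 reads, and Srm-201 took 59 of 60 and 72 of 72.

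In gene level, Oaz1 stood above the other members in both libraries. A long read stands for 1 cDNA molecule, so CPM were not divided by length. Mean model lengths ran from 1087 bases in Oaz1 to 4273 in Azin1 in replicate 1, and the part of length in the order was not tested. In bulk tissue, more cells of a type and more RNA per cell cannot be told apart.

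Oaz1 (antizyme 1) had 766 and 1505 reads, 1929 and 2114 CPM, a mean of 2021 ± 131 (SD, n = 2). Oaz2, the second and less abundant antizyme, had 92 and 168 reads, 232 and 236 CPM. Oaz1 thus held 8.33 and 8.96 reads per Oaz2 read, close in both libraries. The testis antizyme gene Oaz3 had no read. Of the pseudogene copies, Oaz1-ps had 4 and 14 reads and Oaz2-ps none, and reads may be split between near-identical copies.

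Azin1 encodes antizyme inhibitor, an enzymatically inactive relative of ornithine decarboxylase that takes up antizyme. It had 35 and 30 reads, 88.1 and 42.1 CPM, the higher value in replicate 1. The related Azin2 had 20 and 70 reads, 50.4 and 98.3 CPM, the higher value in replicate 2 (adjusted p = 0.169 in the exact binomial test described below).

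Among the synthesis genes, Odc1 was the highest, with 128 and 196 reads, 322 and 275 CPM. Oaz1 held 5.98 and 7.68 reads per Odc1 read. Srm, the spermidine synthase, had 66 and 89 reads, 166 and 125 CPM, and Sms, the spermine synthase, had 9 and 13 reads, 22.7 and 18.3 CPM. Spermidine synthase reads thus outnumbered spermine synthase reads 7.33 and 6.85 times. Amd1, S-adenosylmethionine decarboxylase, had 19 and 11 reads, 47.8 and 15.4 CPM. Its near-identical copy Amd2 had 11 and 13 reads and the pseudogene Amd-ps3 had 3 and 2, so the Amd1 value is uncertain by reads of that order.

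The breakdown genes were lower than Odc1 in both libraries. Sat1, the acetyltransferase that marks spermidine and spermine for oxidation or export, had 48 and 107 reads, 121 and 150 CPM. Paox, the peroxisomal oxidase of acetylated polyamines, had 19 and 43 reads, 47.8 and 60.4 CPM. Smox, which oxidises spermine directly, had 18 and 27 reads, 45.3 and 37.9 CPM. The 3 together held 214 and 249 CPM, against 559 and 434 for the 4 synthesis genes.

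By mean CPM the order was Oaz1, Odc1, Oaz2, Srm, Sat1, Azin1, Paox, Smox, Amd1 and Sms. The step from Oaz1 to Odc1, 6.76 times, was the only one whose 95% counting intervals (exact Poisson) did not overlap in either library. Oaz2 and Srm, and Sat1 and Azin1, overlapped in replicate 1 and not in replicate 2. The other neighbours overlapped in both libraries, and Srm and Sat1, Azin1 and Paox, Smox and Amd1, and Amd1 and Sms changed places between the libraries.

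**Figure D4:**
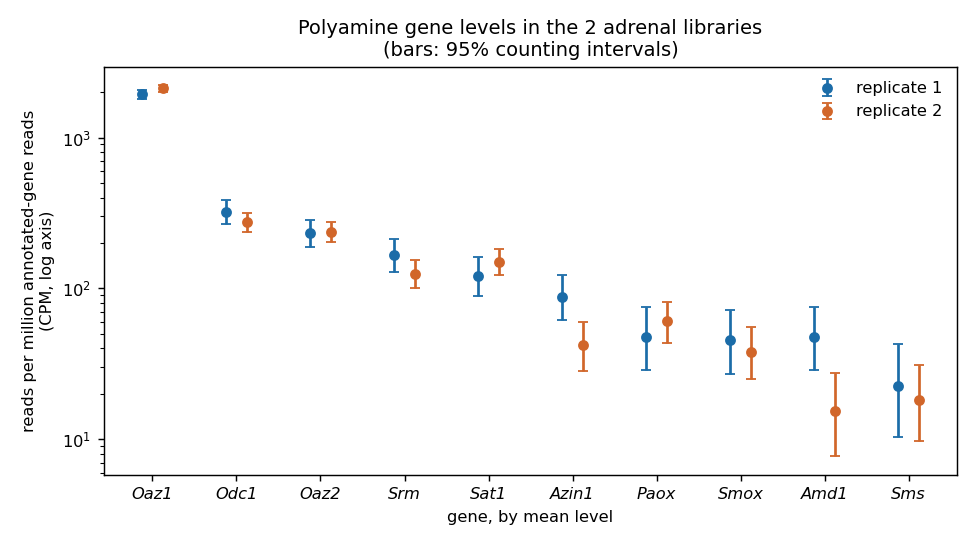
Level of each polyamine gene in CPM (vertical log axis) in replicate 1 (blue) and replicate 2 (orange), genes ordered by mean level, with 95% counting intervals. Oaz1, at 1929 and 2114 CPM, stands apart from all others, and Azin1 and Amd1 have the widest distance between the libraries.

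No member passed the test between the 2 libraries. All 10 were tested by a two-sided exact binomial test over the 9271 genes with at least 10 reads in all, of which 199 (2.15%) passed at a Benjamini-Hochberg adjusted p of 0.05. Of the 199, 125 (62.8%) were higher in replicate 1, and with TMM or DESeq2 scaling 148 of 203 (72.9%) were. At an unadjusted p under 0.05 there were 3 of 10 members, and 1070 of all 9271 genes (11.5%). The count of members that passed was also 0 with the scalings of edgeR (TMM) and of DESeq2. The test compares these libraries, covers counting error only and holds no term for animals.

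These 3 members were Amd1, Azin1 and Oaz1, and none of them passed after adjustment. Amd1 had 0.323 times the level in replicate 2 that it had in replicate 1 (95% interval 0.139 to 0.714, adjusted p = 0.104 in the exact binomial test). Azin1 had 0.478 times (0.284 to 0.802, adjusted p = 0.117 in the exact test). Oaz1 had 1.10 times (1.00 to 1.20, adjusted p = 0.405 in the exact test). Odc1 had 0.854 times (0.680 to 1.08) and Oaz2 1.02 times (0.785 to 1.33). All 4 synthesis genes had higher values in replicate 1, the library with the liver marker reads, except that with annotated transcripts alone Sms was higher in replicate 2 (log2 ratio 0.21). None of the 4 passed the test, and the part of those reads in these values was not tested. The median log2 ratio of replicate 2 over replicate 1 was -0.25 over the 10 members and 0.03 over all genes tested.

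The surrounding pathway was described with a list of 25 further genes. Of these, 18 had reads in both libraries, 2 in 1 library and 5 in none: Arg1, Arg2, Oaz3, Eif5a2 and Aoc1. Both arginases, which make ornithine from arginine, were thus below the limit a count of 0 allows, 7.55 CPM in replicate 1 and 4.21 in replicate 2. Ornithine aminotransferase (Oat), which links ornithine to proline and glutamate, had 108 and 124 CPM. Aldh18a1, the enzyme at the start of proline and ornithine synthesis from glutamate, had 118 and 25.3 CPM.

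Of the 17 list genes tested, 2 passed, both with higher levels in replicate 1. Over all 9271 genes tested 2.15% passed, and 62.8% of those were higher in replicate 1. Aldh18a1 was lower in replicate 2 by a log2 ratio of -2.20 (adjusted p = 6.97e-07, exact binomial test, 47 and 18 reads), and Slc3a2, the heavy chain of amino acid transporters, by -0.59 (adjusted p = 0.00118, exact binomial test, 218 and 259 reads). The median log2 ratio of the list was -0.07.

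Eif5a, the translation factor that carries hypusine made from spermidine, was the highest gene of the list, with 408 and 616 reads, 1027 and 865 CPM. Dhps and Dohh, which make hypusine, had 50.4 and 29.5 CPM and 90.6 and 87.1 CPM. Mat2a, which makes S-adenosylmethionine, had 317 and 242 CPM, while the liver form Mat1a had 1 read and none. Atp13a2, a lysosomal polyamine exporter, had 85.6 and 95.5 CPM.

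Several members used pairs of 3′ splice sites (acceptors) a few bases apart. This description was chosen after the values were seen, for acceptors at most 30 bases apart whose less used site had at least 3 reads in all, and it has no test. There were 7 such pairs in 5 members, and 5 of them were a multiple of 3 bases apart. Such a shift keeps the reading frame only in coding sequence. The antizyme pairs lie between the annotated start codon and the final stop codon, and whether the other sites are coding was not examined. In all 7 the bases skipped by the downstream site end in AG, the dinucleotide at the end of nearly all introns. The sequences below run 5′ to 3′, intron first where the transcripts reach it, and capitals mark the skipped bases.
Oaz1 acceptors 6 bases apart (chr10:80828225-80828257, plus strand): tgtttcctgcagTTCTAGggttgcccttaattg
Oaz1 acceptors 22 bases apart (chr10:80828859-80828907, plus strand): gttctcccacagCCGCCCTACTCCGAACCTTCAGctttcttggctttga
Odc1 acceptors 3 bases apart (chr12:17547271-17547300, plus strand): cccctgtttcagAAGcacatcgagaaccat
Smox acceptors 3 bases apart (chr2:131516205-131516234, plus strand): tgtcactaccagGAGacaccacctttgagc
Azin1 acceptors 3 bases apart (chr15:38492342-38492359, minus strand): TAGaaaaaaatgggagtg

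In the antizymes the downstream acceptor was rare. At the exon with the frameshift site, Oaz1 used the acceptor 6 bases downstream in 10 of 752 reads and 23 of 1480 (1.33% and 1.55%), as Oaz1-202 does. At its last exon, the acceptor 22 bases downstream, which is annotated and changes the frame, took 7 of 757 and 20 of 1478 reads. The acceptor 8 bases downstream at exon 4 took 3 and 1. Oaz2 used an unannotated acceptor 3 bases downstream at its frameshift exon in 1 of 86 and 3 of 166 reads.

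In 3 other members the shift was 3 bases and its share was higher, though with wider intervals. Azin1 used the downstream site, which is annotated, in 7 of 31 and 5 of 27 reads (22.6%, interval 11.4 to 39.8%, and 18.5%, 8.18 to 36.7%). Odc1 used an unannotated site at its exon 3 in 7 of 112 and 15 of 181 reads (6.25% and 8.29%), and Smox in 2 of 18 and 2 of 26. The intervals of the libraries overlapped for each of the 7 pairs. Over all genes, 555 pairs at most 30 bases apart had at least 20 reads at the main and 2 at the other site in each library, and acceptors 3 bases apart made up 167 of them (30.1%).

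**Figure D5:**
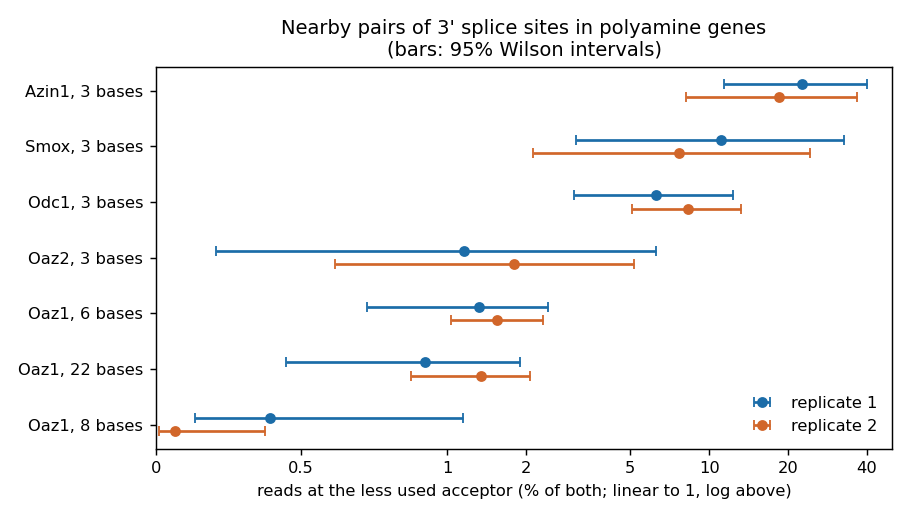
Share of reads at the less used acceptor of each pair (horizontal axis, %, linear to 1 and log above) in replicate 1 (blue) and replicate 2 (orange) with 95% Wilson intervals, labelled by gene and distance between the sites. The Azin1 pair is highest at 22.6 and 18.5%, and the 3 Oaz1 pairs lie below 2% in both libraries.

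The deposited class of 1 such chain differed between the libraries. The 12-exon Odc1 chain with the shifted acceptor was called a new combination in replicate 1 (6 reads) and a new splice site in replicate 2 (14 reads). Of 11684 spliced chains outside the annotation that both libraries share, 678 (5.80%) differed in class between the libraries.

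Sat1 reads included the exon of its nonsense-mediated decay transcript. This exon and those described for Smox, Paox and Azin1 were also chosen after their values were seen and have no test. This cassette exon is known to be skipped when polyamines are abundant, so that more acetyltransferase is made. The 110-base exon at chrX:155215121-155215230 (minus strand) is part of Sat1-207. Its annotated stop codon takes exon bases 12 to 14, shown in capitals (chrX:155215217-155215230):
Sat1 decay exon to its stop codon: gttacagtctcTAG

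The exon was spliced in in 4 reads and skipped in 36 in replicate 1 (10%, interval 3.96 to 23.1%), and in 4 against 92 in replicate 2 (4.17%, 1.63 to 10.2%). The intron around it was kept whole in 7 of 47 and 9 of 105 reads. Of these, 6 and 7 lay on a 5-exon model outside the annotation that is otherwise spliced like Sat1-201.

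Smox and Paox showed larger choices of exon. The 90-base Smox exon at chr2:131524244-131524333 (plus strand), part of Smox-207, was in 5 of 18 and 6 of 26 reads (27.8% and 23.1%). Paox reads spliced from the distal first exon, from chr7:140115822, numbered 4 and 5, against 14 and 29 spliced from the proximal one (22.2% and 14.7% distal). The distal exon lies within Echs1, a fatty acid oxidation gene on the opposite strand with 270 and 582 reads. A 160-base Azin1 exon at chr15:38507187-38507346 (minus strand) was in 4 of 31 reads in replicate 1 and 0 of 26 in replicate 2. In each of these choices the intervals of the libraries overlapped.

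In the antizymes the exon with the frameshift site was nearly constant. It was spliced in with its main acceptor, rather than skipped, in 740 of 742 Oaz1 reads and 1453 of 1456, and in 87 of 88 Oaz2 reads and 163 of 163. The last Oaz1 intron, 74 bases long (chr10:80828797-80828870) and with the same span as the miRNA gene Mir1982, was kept in 8 of 765 and 22 of 1500 reads. Mir1982 itself was assigned 2 and 5 reads. For Oaz1, 10 of 24 spliced chains outside the annotation were in both libraries and held 761 of 765 and 1486 of 1499 of these reads.

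Amd1, Srm and Sms each had 1 annotated transcript that held most of their reads. Amd1-201 took 16 of 19 and 8 of 11 reads, and 2 and 3 more lay on 1-exon genomic models. Sms-201 took 6 of 9 and 13 of 13, and 2 reads of replicate 1 lay on a new combination that keeps an intron of Sms-201. Outside Srm-201, the most read Srm model was a 5-exon incomplete splice match that begins downstream, with 1 and 9 reads.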

How the data were processed

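Long-read RNA-seq of 2 adrenal libraries was used. The authors deposited, per the file headers, whole read counts per transcript model in each library, with a transcript class, and the exons of all models on mm10. Identical exons were found in both files for all 141862 annotated transcripts. The aligner and program versions are not given in the sources used here. Gene counts were sums over all models of an annotated gene, with control RNA reads left out, and CPM used the reads on annotated genes. Sequences, coding starts and stops came from GENCODE M21 on the same build.

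Counts of the 2 libraries were compared by two-sided exact binomial tests of genes with at least 10 reads in all, and transcript use and annotated shares by Fisher's exact tests of genes with at least 20 reads in each library. All were adjusted by Benjamini-Hochberg over all genes tested, with a threshold of 0.05, and log2 ratios had 0.5 added to each count. Both procedures were tested on simulated data that held counting error only, with no variation between animals or library preparations. Shares carry 95% Wilson intervals. Reads have no molecular identifiers, so intervals and limits cover counting error only. With 1 group there is no contrast between conditions to fit. A model covers a gap if its exons reach at least 1 base past it on each side. Named were the 10 members, a list of 25 pathway genes, and 6 other genes with an annotated gap of at most 10 bases and the highest gap-free share (ties ordered by covering reads). Also named were the most read models outside the annotation. The members and lists were chosen with earlier results of these data known. Python 3.11.15, scipy 1.17.1, edgeR 4.0.16 and DESeq2 1.42.0 were used, the last 2 for scaling alone. Promoters, alleles and the SIRV controls were not analysed here.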

Additional observations from a re-analysis of the deposited data

Results flagged for a closer look

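Reads of the antisense class at Sat1 appeared outside the gene comparisons. A 1-exon model on the opposite strand held 7 reads in replicate 1 (chrX:155214059-155214904) and 11 in replicate 2 (chrX:155213315-155214904), above the 3 reads that a count of 0 allows in each. The other members had from 0 to 5 antisense reads in a library. A 1-exon model has no splice site to set its strand, and which strand these reads came from was not tested.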

How the results depend on the processing

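The level of the 10 genes together was 3048 ± 37.5 CPM (SD, n = 2). It was 834 CPM with annotated transcripts alone, scaled to the reads left on them, since nearly all antizyme reads then drop out. It was 3216 CPM without 1-exon genomic models, again scaled to the reads left, and 2886 CPM with all mouse reads as the denominator. Each library alone gave 3021 and 3074 CPM. The share of reads on a complete annotated chain after closing the gap was 98.0% for Oaz1 and 94.0% for Oaz2 when a part of a chain also counted. It ranged from 95.6 to 95.8% for Oaz1 and from 92.4 to 93.5% for Oaz2 with each library alone. The gap-free share was 100% under all alternatives run, and with no intron as short as the gaps in any model with reads it could not differ. No member passed a test between libraries under any scaling, filter or choice of models run. Over these alternatives the adjusted p of the exact binomial test ran from 0.0530 to 0.179 for Amd1, 0.0778 to 0.373 for Azin1 and 0.311 to 0.692 for Oaz1. The count of gaps with covering reads was 80 at a longest gap of 4 bases and 86 at 20 bases. No paired analysis was possible because there is 1 group. Depth limits the genes under about 50 reads, Amd1, Sms, Paox, Smox and Azin1, whose shares have wide intervals.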
